A study of Mus musculus with 18 samples.

Results

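Conventional CD4 T cells (Tconv, the CD4 T cells that lack the CD25 marker of regulatory T cells) of abdominal fat were compared with those of lymph nodes across genes. The comparison used 6 of the 18 Affymetrix M430v2 arrays of the series, the 3 of fat Tconv and the 3 of lymph node Tconv, taken by their titles. The other arrays held the CD25+ regulatory T cells (Treg) of both tissues and Treg and Tconv of the thymus, in a study built around fat Treg. Fat Treg came from mice aged 25 to 35 weeks, with 8 to 10 mice pooled for each array. Lymph node Treg came from mice aged 32 to 36 weeks, with 3 to 6 pooled. The thymus cells came from younger mice, aged 4 to 6 weeks, with 3 to 6 pooled. The fat cells came from epididymal adipose tissue of male C57BL/6 mice aged 25 to 35 weeks, with 8 to 10 mice pooled for each array, and were sorted as CD4+, TCRb+ and CD25- after exclusion of B220, CD11b and CD8a. The lymph node cells came from cervical, inguinal and mesenteric nodes of C57BL/6 mice aged 32 to 36 weeks, with 3 to 6 mice pooled for each array, and were sorted as CD4+ and CD25- after the same exclusions, with no TCRb gate named. The sex of the lymph node mice is not in the labels. No mutation, transgene or treatment is named for either group, and RNA of both was amplified in the same way before labelling. The labels do not say whether the arrays of a group came from separate pools, or whether Tconv and Treg of a tissue came from the same mice. The p-values below therefore measure only the spread between arrays. That spread was estimated for each gene from all 18 arrays in their 6 groups, not from the 6 Tconv arrays alone.

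Naive CD4 T cells circulate between blood and lymph nodes, and depend on the chemokine receptor CCR7 to enter nodes and on the lipid receptor S1PR1 to leave them. Once activated by antigen, CD4 T cells lose much of this homing programme and become effector and memory cells, which can take on a type 1 fate led by the transcription factor T-bet and the cytokine interferon gamma. Memory cells lodged in a tissue often carry CD69 and the integrins CD49a or CD103 and keep S1PR1 and its activator KLF2 low. In visceral fat, T cells of the type 1 kind are known as a source of interferon gamma for adipose macrophages.

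The values are normalized microarray intensities on a linear scale, and "log2 difference" below means fat minus lymph node. The arrays covered 18193 genes, and the 12258 of them whose mean was above an intensity of 65.5 in at least 1 of the 6 groups were tested with limma. At an adjusted p under 0.05, 1353 genes (11% of those tested) were higher in fat Tconv, 662 of them at least 2-fold. In the other direction, 1507 genes (12.3%) were lower, 432 of them at least 2-fold. Counts of called list members below are to be read against these shares of 11% and 12.3%. The median log2 difference of all tested genes was -0.04. This balance rests on the normalization, because the deposited fat Tconv arrays had medians of 76.9 to 82.2 against 58.5 to 63.0 for lymph node Tconv. Without quantile normalization 4899 genes were called higher and 526 lower, so that 90.3% of the calls were higher, against 47.3% in the main result, and the median of all genes was 0.33. All differences below are therefore relative to the bulk of genes. Of the lower genes named below, Itgae, Skil, Foxp1, Id3, Il21, Cxcr5, Klrd1, Prf1, Cd244a, Btla, Txk, Dgka, Egr2, Ifit3, Oasl2, Xaf1, Ccne1, Cpt2, Bid and Kdm5d were not called on the deposited scale, where each still had a negative difference. The file numbers of the scans fell into ranges, 3 of which held 1 fat and 1 lymph node Tconv array each. Of the 2860 called genes, 2844 (99.4%) differed in the same direction in all 3 ranges. The same 6 arrays gave the calls, so this share was bound to be high and does not test the ranges. With the range as a block 1822 genes were higher and 2261 lower. Other probe sets of a gene are given below only where they are above the filter, and not for every gene that has them. Intensities under 65.5 are dim, so fold changes against them are approximate. Of the 2860 called genes, 2750 had fat arrays that did not overlap the lymph node arrays, so a lack of overlap adds little to a call.

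Fat Tconv replicate 1 stood furthest from its group, with a correlation of 0.951 to 0.968 with the other 2 fat arrays, against 0.969 to 0.986 among the lymph node arrays. Without it, 1071 genes were higher and 1091 lower. Genes that mark other cells of fat were also brighter in the fat arrays, several of them most of all in replicate 1. Of 18 stromal, endothelial and mesothelial markers 13 were bright enough to test, and 10 of them were higher and none lower by limma (1 at an unadjusted p under 0.05). In every list below described as having none lower, none was lower at an unadjusted p under 0.05 either. Their summed intensity was 3248 to 7151 in fat and 865 to 1001 in lymph node Tconv. Dcn, which encodes the matrix proteoglycan decorin, read 2600.2, 1443 and 1316 in the fat arrays and 46.7, 59 and 58.2 in the lymph node arrays, while Pdgfra, Pdgfrb, Cdh5, Msln and Wt1 were dim in all groups. Macrophage markers summed to 1224 to 3075 in fat and 984 to 1227 in lymph node, with 5 of 12 tested members higher, and Cd68, C1qc, Marco and Itgam dim. That count was 3 when fat replicate 1, fat replicate 3 or any of the lymph node replicates was left out, and 8 without fat replicate 2. Csf1r, the receptor for the macrophage growth factor, read 1133, 193 and 451 in fat and 124, 176 and 226 in lymph node, so that fat replicate 1 alone was far above the lymph node range. Adipocyte markers summed to 2155 to 5575 in fat and at most 282 in lymph node, carried by Fabp4, Lpl and Car3, while Adipoq, Lep, Cidec and Pck1 were dim. Natural killer markers summed to 1051 to 1323 against 346 to 571, with Ncr1, Klra8 and Klre1 dim. Of the 4 tested members 2, Eomes and Tyrobp, were higher and none lower, with a median of 1.11. T cells also express Eomes, whose mean was 717 in fat and 219 in lymph node. The part of these cells in the differences below was not tested. In pooled bulk RNA, fewer cells of a type and less RNA per cell cannot be told apart.

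The T cell genes Cd3e and Cd4 did not pass. Cd3e, a chain of the T cell receptor complex, read 2297, 1919 and 1552 in fat and 1152, 2309.5 and 2533 in lymph node (log2 difference 0.01 ± 0.35 SE, adjusted p = 0.991). Cd4 read 688, 552 and 506 and 563, 893 and 1186 (log2 difference -0.55, adjusted p = 0.12), with overlapping groups. Cd8a did not pass either (0.05, adjusted p = 0.867), while 2 of 6 tested CD8 and thymocyte markers, Dntt and Cd1d1, were lower (-1.82 and -1.01) and none higher. That number was 1 in each fit with 1 array fewer other than that without lymph node replicate 1. Some of the 6 markers passed the filter only through a group other than these 2. With the filter on the 2 groups compared, 3 were tested, and 2 were lower and 0 higher. Of 10 tested B cell markers Cr2 and Blnk were higher (0.68 and 0.66) and Ms4a1 lower (-1.35), against 11% higher and 12.3% lower over all genes. The higher ones numbered 1 without fat replicate 3 or lymph node replicate 1 or 2, and the lower ones 3 without fat replicate 2. Of 9 markers of invariant NKT and other innate-like T cells, Nfil3, Slamf1 and Ltb4r1 were higher and Cd1d1 lower, while their lineage factor gene Zbtb16 did not pass (0.08). Of 8 dendritic cell and MHC class II markers 1, H2-Ab1, was higher (0.98), a call lost in 5 of the 6 fits with 1 array fewer, that without fat replicate 2 being the exception, and none of 6 tested mast cell and granulocyte markers was called by limma (1 lower at an unadjusted p under 0.05). The red cell gene Alas2 was higher by 3.56. The Y-linked Eif2s3y read 899, 818 and 1423 in fat and 3135, 1940.1 and 1845 in lymph node, so it was bright in both groups, though lower in fat (-1.14). Kdm5d was also lower (-0.82), and Uty and Xist were higher (2.30 and 1.00). Of these 4 sex-linked genes, 1 was lower without fat replicate 1, fat replicate 3 or lymph node replicate 2, and 1 higher without lymph node replicate 1.

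Most of the tested type 1 genes were higher in fat Tconv. Of 28 listed genes, 22 were tested, and 14 were higher in fat Tconv and none lower (list median log2 difference 1.10, against -0.04 over all tested genes). This and the other lists were chosen with earlier results of these data known, so their counts and medians are descriptive. The gene at the centre of the type 1 programme is Ifng, and its promoter is shown because Ifng had the largest difference of the list. The window runs from 250 bases before to 50 after the transcription start (GRCm38.p6, chr10:118440796-118441095, plus strand, from RefSeq), with capitals marking a TATA box at -30, a motif chosen after the values were seen.

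Ifng promoter: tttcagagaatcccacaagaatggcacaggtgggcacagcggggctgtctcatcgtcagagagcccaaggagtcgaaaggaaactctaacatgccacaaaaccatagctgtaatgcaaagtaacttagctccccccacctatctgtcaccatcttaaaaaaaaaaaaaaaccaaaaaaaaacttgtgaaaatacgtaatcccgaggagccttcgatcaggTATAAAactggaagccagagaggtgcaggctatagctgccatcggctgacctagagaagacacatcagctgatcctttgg

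The core T-box motif bound by T-bet and Eomes, written TCACAC and searched on both strands, has no match in this window, while 14.5% of the 32851 promoter windows of this length in the table hold one and 13.6% hold the TATAAA shown. The 23 type 1 genes in the table have 31 windows, and 3 of those windows held the motif, those of Cxcr3, Il12rb2 and Xcl1. A match or its absence describes these letters only.

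Ifng, the cytokine that defines type 1 cells, read 11829.9, 10300.0 and 11423 in the 3 fat arrays and 167, 301 and 435 in the 3 lymph node arrays. The fat arrays lay close together and far above every lymph node array, and the log2 difference was 5.32 ± 0.48 SE (adjusted p = 4.39e-07). Tbx21, which encodes T-bet, read 1628, 699 and 1263 in fat and 28.1, 43 and 42.3 in lymph node, where all 3 arrays were below the filter level, so that the log2 difference of 4.93 ± 0.29 depends on a dim baseline. Fat replicate 2 was lowest of its group and still far above all lymph node arrays. Eomes, a related T-box factor, read 517, 942 and 692 against 127, 302 and 226 (log2 difference 1.76 ± 0.28, adjusted p = 0.000191), again with no overlap.

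Ccl5, a chemokine released by effector T cells, read 8719, 7963 and 8839.9 in fat and 321, 453 and 440.2 in lymph node, a 21.2-fold difference (log2 4.41 ± 0.24). Cxcr3, the receptor that draws type 1 cells to inflamed tissue, read 3753, 4235 and 4398 and 389, 556 and 509.7 (log2 3.10 ± 0.21). Fasl, which encodes the death ligand FasL, read 2331, 2583 and 2202 and 222, 234 and 193 (log2 3.46 ± 0.17). None of the 3 genes overlapped between tissues. A dimmer probe set of Fasl gave 1.55. The chemokine genes Ccl3 and Ccl4 differed by 2.55 and 1.06, and the cytokine genes Tnf and Csf2 by 1.28 and 0.94, all called higher.

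Among receptors and signal transducers, Ifngr1, the ligand-binding chain of the interferon gamma receptor, was higher by 1.99 ± 0.15 (fat 1343, 1199.9 and 1245, lymph node 367, 337 and 259), as were Il18rap (2.22), Runx3 (1.13) and Il12rb1 (0.75). The signalling chain of the IL-12 receptor, Il12rb2, read 58.3, 55.2 and 54.8 in fat and 53.9, 71 and 80.2 in lymph node (-0.27 ± 0.16, adjusted p = 0.262). Stat4, the transcription factor that IL-12 activates, read 601, 551 and 611 and 494, 418 and 323 and did not pass (0.53 ± 0.24, adjusted p = 0.123), although its 3 fat arrays were all above the lymph node arrays. It was called without quantile normalization (0.86) and with the scan range as a block. The other members that did not pass were Il18r1, Il2, Zeb2, Ifngr2, Irf1 and Lta, between -0.49 and 0.65. Hlx, Twist1, Xcl1 and Havcr2 were dim.

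**Figure D1:**
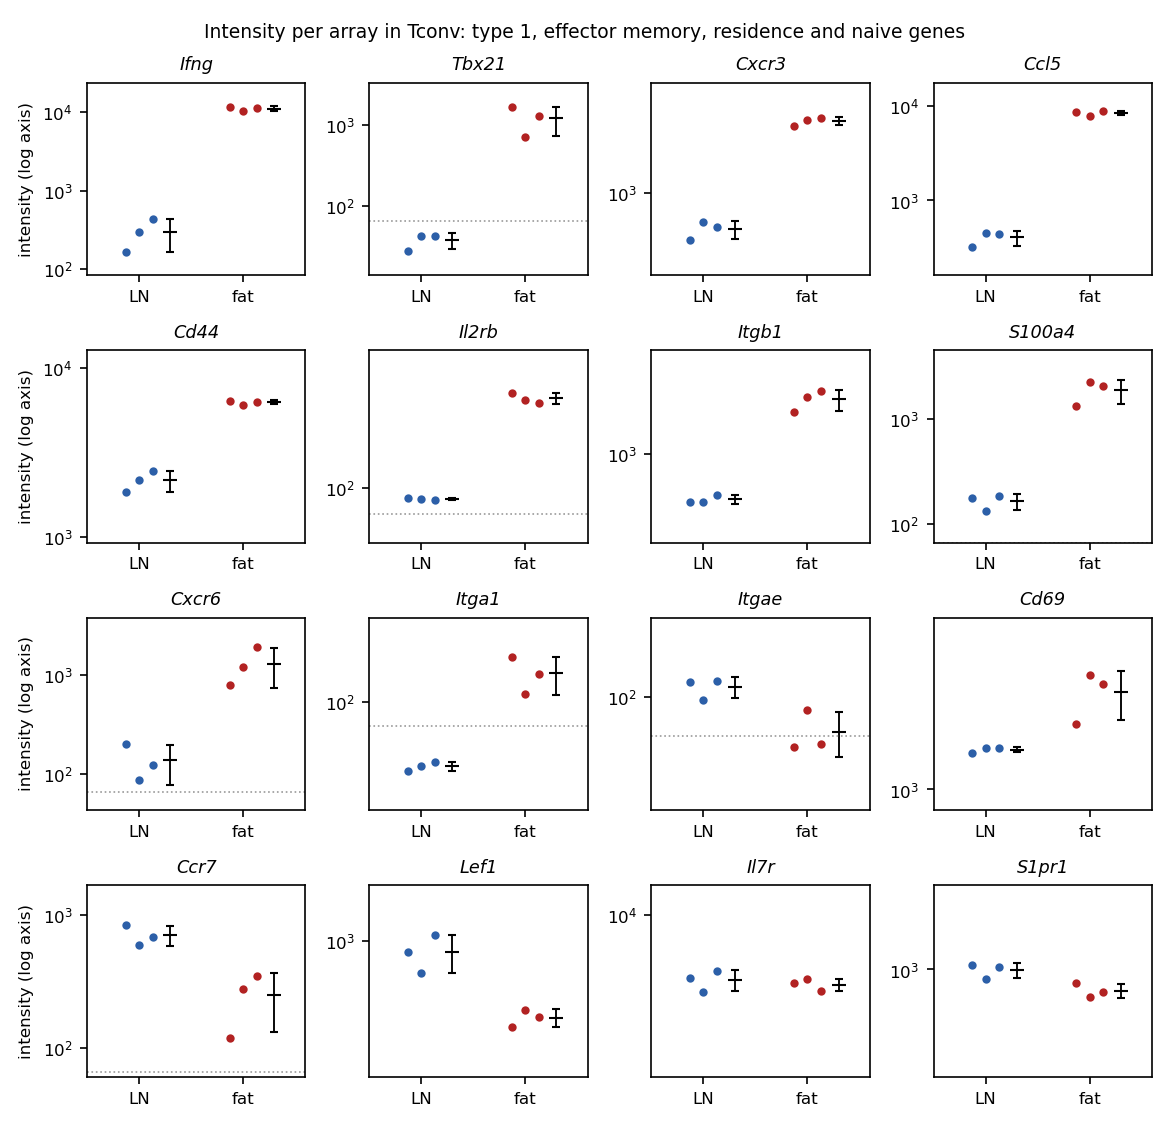
Intensity of 16 genes in each of the 3 lymph node (blue) and 3 fat (red) Tconv arrays on a log axis, with the mean and SD beside each group and a dotted line at the filter level of 65.5 where it falls in range. The rows hold type 1, effector memory, residence and naive or egress genes. Ifng, Tbx21, Cxcr3 and Ccl5 separate fully between tissues, Ccr7 and Lef1 are lower in fat, and Il7r overlaps.

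Of 28 listed effector memory genes 25 were tested, and 18 were higher and none lower, with a median of 1.55. Cd44, the adhesion receptor used to tell memory from naive T cells, read 6385, 6078 and 6342 in fat and 1840.4, 2169.6 and 2461 in lymph node, a 2.93-fold difference (log2 1.55 ± 0.21, adjusted p = 3.91e-05). Il2rb, the receptor chain shared by IL-2 and IL-15, read 479, 427 and 408 and 85.4, 83.6 and 82.3 (log2 2.38 ± 0.15), though a second probe set gave only 0.20. Itgb1, the beta chain of the integrins that bind matrix, read 2029, 2636 and 2916 and 438, 436 and 496 (log2 2.45 ± 0.16). All 3 separated the tissues with no overlap.

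The widest differences in this list were in Anxa1, a calcium-dependent membrane-binding protein, at 3733, 3330.5 and 3439 against 145, 94.9 and 105 (log2 4.95 ± 0.25), and in Bhlhe40, a transcription factor of cytokine-producing T cells, at 4269, 2933 and 4223 against 109.6, 186 and 247 (log2 4.45 ± 0.28). Klrg1, an inhibitory receptor of effector cells, read 2242, 1796 and 1421 against 114, 143 and 156 (log2 3.71 ± 0.20). In each of these genes even the lowest fat array was several fold above the highest lymph node array. The calcium-binding S100a4 read 1328, 2248 and 2046 against 178, 132 and 183 (log2 3.49 ± 0.30) and S100a6 3066, 5091 and 5422 against 354, 358 and 424 (log2 3.54 ± 0.32), with fat replicate 1 the lowest fat array for both. Lgals1, which encodes galectin-1, read 1513, 2336 and 1794 against 321, 292 and 289 (log2 2.62 ± 0.30). The other called members were Lgals3, Anxa2, Ahnak, Id2, Prdm1, S100a10, Crip1, Vim and Maf, from 0.89 to 2.83. Fibroblasts and macrophages express several of these genes too, among them Anxa1, Lgals1, S100a6 and Vim, and the stromal sum was 3248 to 7151 in fat against 865 to 1001 in lymph node. Their part in these values was not tested. Capg, Anxa5, Itga4, Cd2, Itgal, Emp3 and Tmsb10 did not pass, between -0.30 and 0.35.

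Genes linked to tissue residence gave 21 higher and 2 lower members of 25 tested (30 listed), with a median of 2.07. This list shares 5 members with the immediate early list described below (Nr4a1, Nr4a2, Nr4a3, Junb and Fosl2), which were all higher with a median of 3.50. Over the other 20, 16 were higher and 2 lower, with a median of 1.59. Leaving out each array in turn gave 20 to 22 higher members in the whole list. Prdm1 and Bhlhe40 are also in the effector memory list and Runx3 in the type 1 list, so these lists are not independent.

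Cxcr6, a receptor for a chemokine held on the cell surface, read 793, 1203 and 1896 in fat and 202, 85.5 and 122 in lymph node (log2 3.25 ± 0.34, adjusted p = 2.51e-06). Rgs1, which dampens chemokine receptor signals, read 1375, 1231 and 1207 and 79.8, 118 and 158 (log2 3.47 ± 0.29). Itga1, the CD49a chain that binds collagen, read 224, 115 and 163 and 29, 32.1 and 34.1 (log2 2.35 ± 0.20), with all lymph node arrays below the filter level. The fat arrays were above the lymph node arrays throughout for these genes. Cd69, which pulls S1PR1 from the surface, read 2209.5, 3997 and 3586 and 1559, 1648 and 1644 (log2 0.97 ± 0.23, adjusted p = 0.00485), a difference of 1.96-fold, with fat replicate 1 the closest to lymph node.

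Itgae, which encodes the CD103 chain that binds E-cadherin on epithelium, went the other way. It read 57.8, 87.1 and 60.1 in fat and 119, 97.1 and 120.2 in lymph node (log2 -0.73 ± 0.23, adjusted p = 0.0277), and a second probe set gave -0.70. The call was lost in several fits with 1 array fewer (-0.62 without fat replicate 1, -0.65 without fat replicate 3, -0.69 without lymph node replicate 1 and -0.68 without lymph node replicate 3) and without quantile normalization (-0.33). Skil, a repressor of SMAD signalling, was the other lower member, at 2313, 1362 and 1655 against 2784, 2825 and 2309.5 (log2 -0.60 ± 0.20, adjusted p = 0.0411), with 1 fat array inside the lymph node range. Its second probe set gave 1.03, and its call was lost in several fits too (-0.43 without fat replicate 2, -0.57 without fat replicate 3, -0.56 without lymph node replicate 1 and -0.55 without lymph node replicate 2).

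The largest differences of the residence list were in transcription factor genes. Nr4a2, an orphan nuclear receptor, read 2687, 1645 and 1791 in fat and 49, 89.4 and 68.3 in lymph node (log2 4.90 ± 0.23). Crem, a cyclic AMP response factor, read 5486, 1502 and 4049 and 124, 128 and 92.3 (log2 4.83 ± 0.38), and Fosl2, an AP-1 subunit, read 7121, 2938 and 5738 and 183, 185 and 137 (log2 4.89 ± 0.25). A dimmer probe set of Fosl2 gave only 0.90, and other bright ones of Nr4a2 gave 2.62 to 7.03. Fat replicate 2 was the lowest fat array in each of the 3 genes and all fat arrays were above lymph node. P2rx7, the extracellular ATP receptor, read 617, 905 and 762 and 141, 266 and 272 (log2 1.79 ± 0.28). Rgs2, Rgs16, Litaf, Prdm1, Dusp6, Runx3, Hic1, Ahr, Ctla4 and, from the list above, Bhlhe40 were also higher, while Icos and Inpp4b did not pass (0.51 and 0.69).

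Of 9 tested genes for leaving tissue and entering nodes 2 were higher and 2 lower, with a median of 0.01. Without quantile normalization 4 were higher and 2 lower, with a median of 0.45. S1pr1 read 886, 784 and 821 in fat and 1039, 923 and 1023 in lymph node, a log2 difference of -0.26 ± 0.18 that did not pass (adjusted p = 0.343), although the 3 fat arrays were the lowest. Klf2, which drives S1pr1, was called higher (245, 711 and 496 against 246, 205 and 249.7, log2 0.92 ± 0.32, adjusted p = 0.0441). Fat replicate 1 lay within the lymph node range, and the call was lost in 5 of the 6 fits with 1 array fewer (0.58 without fat replicate 2, 0.84 without fat replicate 3, 0.97 without lymph node replicate 1, 0.83 without lymph node replicate 2 and 0.97 without lymph node replicate 3). Cxcr4, a receptor for the stromal chemokine CXCL12, was the strongly higher member, at 1296, 1813 and 1043 against 47.1, 86.3 and 106 (log2 4.16 ± 0.32). Ripor2, a regulator of T cell polarity, read 3042, 3143 and 2679 against 7746, 8317 and 7263 (log2 -1.40 ± 0.28), but its other bright probe sets gave 1.16, -0.50 and -0.38. S1pr4, Klf3, Itga4 and Itgb7 lay between 0.0036 and 0.29 and did not pass.

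Most naive and central memory genes were lower. Of 20 genes 18 were tested, and 13 were lower and 1, Klf2, higher, with a median of -1.35 against -0.04 over all genes. Ccr7, the receptor for node entry, read 119, 278 and 348 in fat and 847, 602 and 689 in lymph node, 3.13-fold lower (log2 -1.65 ± 0.36, adjusted p = 0.00271), with fat replicate 1 the lowest. Lef1, a transcription factor of resting T cells, read 305, 389 and 351 and 866, 642 and 1089.7 (log2 -1.29 ± 0.21, adjusted p = 0.000261). Cd27, a costimulatory receptor kept by naive and central memory cells, read 65.5, 114 and 87.8 and 341, 268 and 316 (log2 -1.82 ± 0.20). The tissues did not overlap in any of these genes.

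The widest falls in the list were in Nsg2, an endosomal protein, at 391, 953 and 608 against 3145, 3213 and 2872 (log2 -2.33 ± 0.23), and in Treml2, a surface receptor of the immunoglobulin family, at 79, 123 and 88.4 against 525, 473 and 392 (log2 -2.28 ± 0.24). Dapl1 read 74.7, 214 and 142 against 752, 593 and 325 (log2 -2.00 ± 0.42). Igfbp4, a binding protein for insulin-like growth factors, read 1767, 2215 and 1477 against 6885, 7354 and 6233 (log2 -1.92 ± 0.39), with -2.55 to -0.35 in other probe sets. In each of these genes fat replicate 2 was the closest to lymph node, and no array overlapped. The transcription factors Bach2, Satb1, Foxo1, Foxp1 and Id3 and the cytoskeletal Actn1 were lower, with log2 differences from -1.72 to -1.02. Il7r, the receptor for the survival cytokine IL-7, read 5738, 5926 and 5378 in fat and 5995, 5371 and 6351 in lymph node and did not pass (-0.05 ± 0.23, adjusted p = 0.902). S1pr1, Ets1 and Bcl11b did not pass either (-0.26, -0.23 and -0.23), and Tcf7 had no single-gene probe set. Without quantile normalization 11 members were still called lower, with a median of -1.02. A KLF box, written CACCC, was in 18 of the 26 promoter windows that 15 members have in the table and in 57.5% of all windows.

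**Figure D2:**
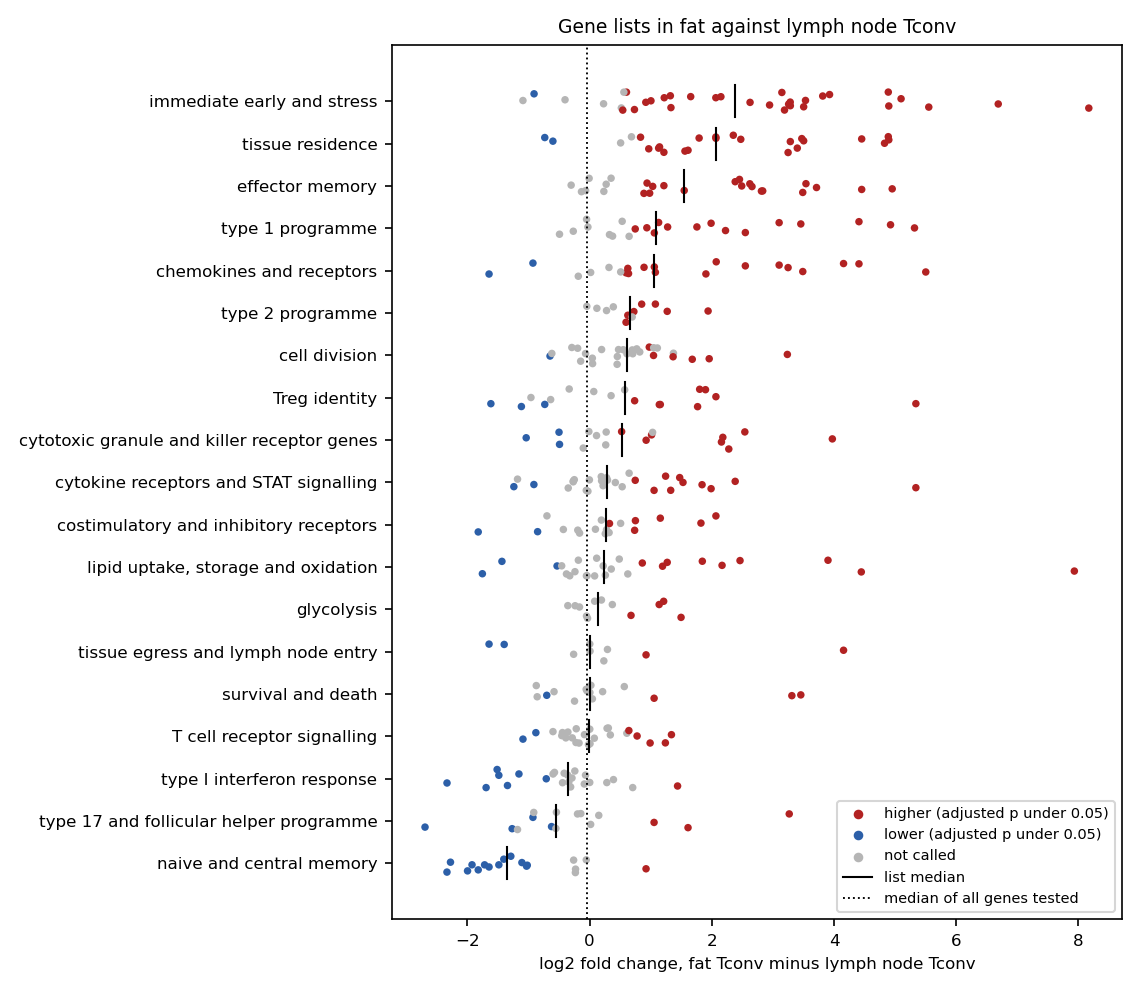
Log2 difference between fat and lymph node Tconv for every tested member of 19 gene lists, 1 point a gene, with red for higher and blue for lower at an adjusted p under 0.05, black bars for list medians and a dotted line at the median of all 12258 genes (-0.04). The immediate early, residence, effector memory and type 1 lists lie to the right and the naive list to the left.

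In the type 2 list 7 of 12 tested members were higher and none lower, with a median of 0.66 (11 higher without quantile normalization). Il10 read 176, 214 and 178 in fat and 46.2, 52 and 49.4 in lymph node (log2 1.94 ± 0.16), Gata3, the type 2 transcription factor, 245, 329 and 284 and 149, 166 and 157 (log2 0.85 ± 0.19), and Ccr4, a chemokine receptor of type 2 and regulatory cells, 118, 82.5 and 113 and 48.4, 42.5 and 56.8 (log2 1.08 ± 0.16). These genes separated the tissues, with lymph node arrays at or below the filter level for Il10 and Ccr4. Il4 (0.73), Ccr8 (0.63), Ccr3 (0.60) and Pparg (1.27) were the other called members, and Il5, Il17rb, Il4ra, Ptgdr2 and Stat6 did not pass.

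Among genes of type 17 and follicular helper cells 3 of 15 were higher and 4 lower, with a median of -0.54. Without quantile normalization 4 were higher and 1 lower, with a median of 0.20. The median was -0.24 without fat replicate 1 or fat replicate 2, -0.36 without lymph node replicate 2 and -0.23 without lymph node replicate 3. Rora, a nuclear receptor of type 17 and innate-like cells, read 3421, 1807 and 2338 in fat and 222, 241 and 302 in lymph node (log2 3.27 ± 0.27), and its other bright probe sets gave 1.40 to 3.96. Ahr, a ligand-activated transcription factor, was higher by 1.61 ± 0.25 (444, 632 and 500.5 against 114, 233 and 185), but a dimmer probe set gave 0.14. Stat3 was higher by 1.06, with other probe sets between -0.09 and 0.71, and lost its call in some fits (0.77 without fat replicate 2, 0.89 without lymph node replicate 1 and 1.03 without lymph node replicate 3). Il17a did not pass (-0.20). Pou2af1, a coactivator of B cells and follicular helper cells, had the lowest log2 difference of the list, at 40.8, 144 and 54.1 against 255, 653 and 517 (log2 -2.69 ± 0.44). The B cell gene Ms4a1 read 126, 203 and 138 and 316, 498 and 374 in the same arrays, and the part of B cells in the Pou2af1 value was not tested. Cxcr5, the receptor for B cell follicles, read 22.9, 68.3 and 38 against 52.1, 69.9 and 112 (log2 -0.93), and lost its call in 4 of the 6 fits with 1 array fewer (-0.54 without fat replicate 1, -0.91 without fat replicate 3, -0.97 without lymph node replicate 2 and -0.63 without lymph node replicate 3). Il21, the follicular helper cytokine, read 129, 208 and 269 against 197, 1006 and 512 (log2 -1.27; -0.98 without fat replicate 1, -1.32 without fat replicate 2, -0.71 without lymph node replicate 2 and -1.20 without lymph node replicate 3) and Ascl2 52.9, 41.2 and 42.2 against 50.9, 79 and 83.5 (log2 -0.62; -0.57 without fat replicate 3, -0.53 without lymph node replicate 2 and -0.49 without lymph node replicate 3), with overlapping groups for both. The number of lower members was 1 without lymph node replicate 2 or 3 and 2 without fat replicate 3.

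Of 17 tested cytotoxic genes 8 were higher and 3 lower, with a median of 0.52. The lower ones numbered 0 without fat replicate 1 or fat replicate 3, 1 without any of the lymph node replicates and 2 without fat replicate 2, and without quantile normalization 11 were higher and none lower (median 0.91). Nkg7, a granule membrane protein of killer and type 1 cells, read 3983, 3896 and 4576 in fat and 215, 314 and 271 in lymph node, a 15.7-fold difference (log2 3.97 ± 0.20). The granule proteases Gzmb and Gzmk read 366, 287 and 296 against 60.5, 56.1 and 46.4 (log2 2.54 ± 0.30) and 376, 718 and 606 against 95.6, 149 and 101 (log2 2.28 ± 0.24). The protease inhibitor genes Serpinb6b and Serpinb9 were higher by 2.18 and 2.16, and Ctsw, Srgn and Klrk1 by 1.01, 0.93 and 0.52. Prf1, which encodes the pore-forming perforin, was called lower, at 62.2, 72.8 and 72.7 against 105, 80.3 and 109.9 (log2 -0.50 ± 0.17). The receptor genes Klrd1 and Cd244a were lower at log2 -1.04 and -0.49. All 3 lower calls were lost in some fits with 1 array fewer. For Prf1 those fits gave -0.42 without fat replicate 1, -0.54 without fat replicate 2, -0.54 without fat replicate 3, -0.45 without lymph node replicate 1 and -0.41 without lymph node replicate 3. For Klrd1 they gave -0.88 without fat replicate 1, -0.90 without fat replicate 3, -0.83 without lymph node replicate 1 and -1.04 without lymph node replicate 2. For Cd244a they gave -0.49 without fat replicate 1, -0.43 without fat replicate 3, -0.46 without lymph node replicate 2 and -0.45 without lymph node replicate 3. Gzma, Cd160, Gzmm, Cst7, Lamp1 and Crtam did not pass, and Gzmc, Klrc1, Klrc2, Klre1 and Klra1 were dim.

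Among costimulatory and inhibitory receptors 6 of 18 were higher and 2 lower, against 11% and 12.3% over all genes, with a median of 0.27. Ctla4, the inhibitory receptor that competes with CD28, read 1024, 2114 and 1982 in fat and 264, 379 and 583 in lymph node (log2 2.07 ± 0.32). Tnfrsf1b, a TNF receptor, was higher by 1.82 ± 0.29, though a second probe set gave -0.14, and Tnfrsf4, which encodes OX40, by 1.16 ± 0.25. Tnfrsf18 and Cd40lg were higher by 0.74 and 0.33. Cd28 was higher by 0.75 ± 0.16, with no overlap of the groups. Btla, an inhibitory receptor of resting lymphocytes, was lower at log2 -0.85 ± 0.18 (3088, 2845 and 2983 against 5086, 5432 and 5558), and Cd27 as given above. The exhaustion-linked Pdcd1 and Lag3 did not pass (0.10 and -0.19).

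Of 17 tested Treg identity genes 8 were higher and 3 lower, with a median of 0.57 (0.22 without fat replicate 2). Foxp3, the Treg lineage factor, read 53.7, 116 and 57.3 in fat and 38.9, 53.8 and 51.7 in lymph node (0.57 ± 0.27, adjusted p = 0.146), with overlap, and was called without quantile normalization (0.98) and with the scan range as a block. Il2ra, which encodes the CD25 that the sort excluded, read 49.6, 144 and 76.5 and 34, 37.9 and 39.5 (log2 1.14 ± 0.30, adjusted p = 0.0109), and lost its call without fat replicate 2 (0.73). Fat replicate 2 was the highest array for both genes. The higher ones included Socs2, Ctla4, Tnfrsf4 and Tnfrsf18, which other activated T cells express, and Penk (1.77). Entpd1, which encodes the ATP-degrading CD39, read 67.7, 124 and 74.7 against 22.4, 23.5 and 23.1 (log2 1.90 ± 0.22), and Nrp1 1240.0, 1789 and 1533 against 204, 548 and 717 (log2 1.80 ± 0.34), with other probe sets of Nrp1 from -0.50 to 2.42. Ikzf4, a partner of Foxp3, was lower at 97.6, 179 and 173 against 436, 441 and 451 (log2 -1.62 ± 0.30), but 2 other probe sets gave -0.15 and -0.06. Izumo1r, the folate receptor 4 of Treg and follicular helper cells, was lower at log2 -1.12 ± 0.26.

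In cytokine receptor and STAT signalling 10 of 28 members were higher and 2 lower, against 11% and 12.3% over all genes. The median was 0.29 (0.45 without fat replicate 2). Socs2, a feedback inhibitor of cytokine receptors, had the widest difference, at 1187, 1339 and 1162 in fat and 28.9, 29.6 and 32.6 in lymph node (log2 5.34 ± 0.24). Its lymph node arrays were all dim, and its other bright probe sets gave 0.71, 1.70, 2.46 and 5.90. Pim1, a kinase induced by STAT5, read 1711, 1469 and 1546 against 325, 417 and 623 (log2 1.84 ± 0.25), with 0.15 in a dimmer probe set. The feedback genes Cish and Socs3 were higher by 1.53 and 1.47, and the receptor genes Il10ra and Ifnar2 by 1.33 and 1.24. Il6st, the shared signalling chain of the IL-6 family, read 604, 853 and 665 against 1808, 1585 and 1572 (log2 -1.24 ± 0.27) and Il27ra 809.6, 1179 and 979.7 against 1767, 1782 and 1975 (log2 -0.91 ± 0.18), with lower values in all fat arrays. Without fat replicate 2 the list had 4 lower members.

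T cell receptor signalling genes had a median of -0.02, with 5 of 25 higher and 2 lower, against 11% and 12.3% over all genes. Without quantile normalization 8 were higher and none lower (median 0.32). Nfatc2, a calcium-dependent transcription factor, was higher by 1.34 ± 0.15 (1741, 1628 and 1392 against 601, 639.9 and 633), with 0.27 and 0.36 in dimmer probe sets. Cblb, a ubiquitin ligase that restrains the receptor, was higher by 1.24 ± 0.20, with 0.73 and -0.21 in others, and Ptpn22, an inhibitory phosphatase, by 0.99 ± 0.20. The adaptor gene Sla was higher by 0.64, and Malt1 (0.78) lost its call in some fits (0.69 without fat replicate 2, 0.67 without fat replicate 3, 0.77 without lymph node replicate 1 and 0.68 without lymph node replicate 3). Dgka (-0.88), which degrades diacylglycerol, and the kinase gene Txk (-1.09) were lower, and neither call held without fat replicate 1 or lymph node replicate 1 (for Dgka -0.66 without fat replicate 1 and -0.83 without lymph node replicate 1, for Txk -0.78 without fat replicate 1 and -0.85 without lymph node replicate 1). The higher members numbered 3 without fat replicate 3, lymph node replicate 1 or lymph node replicate 3.

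Chemokine and receptor genes gave 15 higher and 2 lower of 21 tested, with a median of 1.06. Some members passed the filter only through a group other than these 2. With the filter on the 2 groups compared, 13 of 18 were higher and 2 lower, with a median of 1.49. Cxcl2, a neutrophil attractant made by many stressed cell types, read 1435, 679.6 and 564 in fat and 18.7, 19.6 and 16.1 in lymph node, where it was dim (log2 5.50 ± 0.25). Ccr2, the receptor for CCL2, read 505, 1464 and 854 and 76.3, 72.2 and 80.9 (log2 3.49 ± 0.29), with 2.36 and 0.22 in other probe sets. Monocytes express both genes, and the macrophage sum was 1224 to 3075 in fat against 984 to 1227 in lymph node. Fat replicate 1 was highest for Cxcl2 and lowest for Ccr2. The other higher members not named above were Ccrl2, Ccl9, Cxcl10 and Cxcl3, from 0.64 to 2.07. Cxcl3 was dim in both groups, at 8.26, 16.1 and 8.29 in fat and 6.67, 7.08 and 6.21 in lymph node, and lost its call in 3 fits (0.32 without fat replicate 2, 0.64 without lymph node replicate 1 and 0.59 without lymph node replicate 3). The 2 lower members were Ccr7 and Cxcr5, given above, with Ccr7 alone left in the fits that lost Cxcr5.

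Immediate early and stress genes included the widest difference of all tested genes. Of 34 members, all tested, 28 were higher and 1, Egr2, was lower, with a median of 2.39. Hspa1a and Hspa1b encode the inducible HSP70 chaperone and are near-identical neighbours, so which copy a probe set reads is uncertain. Their promoter windows (GRCm38.p6, minus strand, from RefSeq, chr17:34972107-34972406 for Hspa1a and chr17:34959189-34959488 for Hspa1b) are shown because these genes head the list. Capitals mark a match to a heat shock element unit, GAANNTTC, at -104, a motif chosen after the values were seen.

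Hspa1a promoter: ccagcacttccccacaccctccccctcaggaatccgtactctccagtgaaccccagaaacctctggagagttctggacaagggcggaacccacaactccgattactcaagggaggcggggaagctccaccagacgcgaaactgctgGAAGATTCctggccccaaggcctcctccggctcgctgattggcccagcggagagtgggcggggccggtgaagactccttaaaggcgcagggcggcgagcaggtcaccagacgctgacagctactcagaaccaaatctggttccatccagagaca
Hspa1b promoter: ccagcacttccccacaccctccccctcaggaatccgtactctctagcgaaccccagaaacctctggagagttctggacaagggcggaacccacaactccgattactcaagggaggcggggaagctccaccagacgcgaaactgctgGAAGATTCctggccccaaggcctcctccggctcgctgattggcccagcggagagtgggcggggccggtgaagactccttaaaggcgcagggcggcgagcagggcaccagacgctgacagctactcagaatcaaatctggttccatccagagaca

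The windows differ in 4 of 300 bases. The motif is in 7.9% of all promoter windows, and in 6 of the 35 windows of the 28 list members in the table, those of Fosl2, Hspa1a, Hspa1b, Hsph1 and Jun.

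Hspa1a read 2629.8, 4913 and 3785 in fat and 12.6, 11.9 and 13.6 in lymph node, where it was dim (log2 8.17 ± 0.24, adjusted p = 3.78e-13), and Hspa1b read 7195, 7354 and 6994 and 51.7, 82.7 and 79 (log2 6.69 ± 0.52). The AP-1 gene Fosb read 1686, 1646 and 1999 and 34.4, 47.6 and 84.4 (log2 5.10 ± 0.26) and Klf4, an early response factor, 2702, 1449 and 1669.8 and 30.4, 29.8 and 70 (log2 5.55 ± 0.33), with 2.62 in a second probe set. For all of these the fat arrays were far above the lymph node arrays. Jun, Fos, Junb, Jund, Dusp1, Dusp5, Atf3, Gadd45b, Ier2, Ier3, Tnfaip3 and Klf6 were also called higher, from 1.22 to 3.93. Among other chaperone genes, Hspa8 was at 0.54, Dnajb1 at 0.92 and Hsp90aa1 at 1.00. Egr1 and Egr3, which antigen receptor signals induce, did not pass (0.52 and -1.09), nor did Nfkbia, Ier5 and Myc. Egr2 read 365, 442 and 492 in fat and 599.9, 1144 and 766 in lymph node (log2 -0.91 ± 0.28), with -1.58 in a second probe set, and its call was lost in 2 fits (-0.79 without fat replicate 1 and -0.66 without lymph node replicate 2). The lower members numbered 2 without fat replicate 2, fat replicate 3 or lymph node replicate 3.

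**Figure D3:**
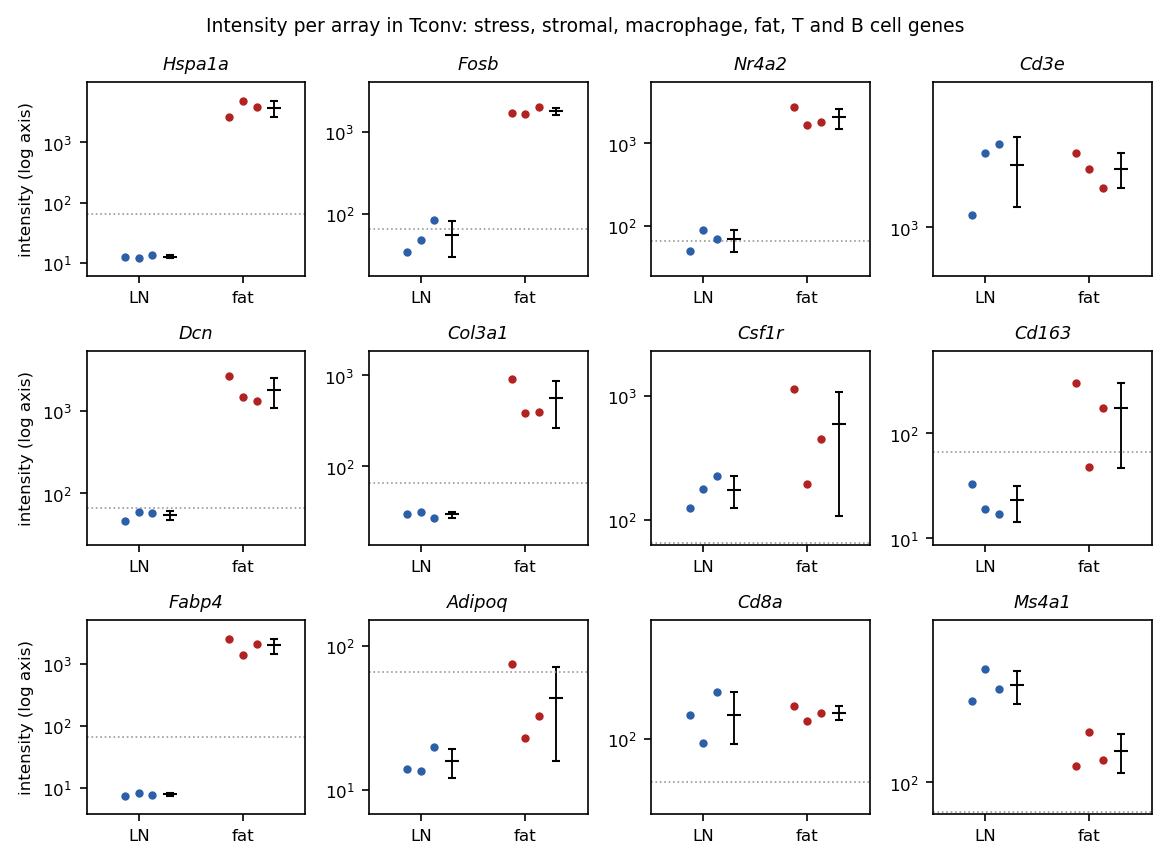
Intensity of 12 genes in each lymph node (blue) and fat (red) Tconv array on a log axis, with mean and SD and a dotted line at the filter level of 65.5. The stress genes Hspa1a, Fosb and Nr4a2 and the stromal genes Dcn and Col3a1 separate fully, Csf1r and Cd163 are highest in fat replicate 1, Cd3e and Cd8a overlap, and Ms4a1 is lower in fat.

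Type I interferon response genes gave 7 lower and 1 higher of 23 tested, with a median of -0.36. Without quantile normalization 4 were lower and 3 higher, with a median of -0.02. Usp18, a brake on the interferon receptor, read 86.3, 124 and 108 in fat and 399.9, 509 and 724 in lymph node (log2 -2.33 ± 0.38), and Rtp4 411, 435 and 383 and 720.3, 1240.5 and 1677 (log2 -1.48 ± 0.26). Ifit1 and Ifit3, antiviral RNA-binding genes, were lower at log2 -1.69 and -1.51, with lymph node replicate 3 the highest array for each of these 4 genes. Ifit1 lost its call in 2 fits (-1.37 without fat replicate 1 and -1.34 without lymph node replicate 3) and Ifit3 in 5 (-1.33 without fat replicate 1, -1.60 without fat replicate 2, -1.61 without fat replicate 3, -1.58 without lymph node replicate 2 and -1.02 without lymph node replicate 3). Oasl2, Ifit2 and Xaf1 were the other lower members (-1.34, -1.16 and -0.71). Mx1 was the higher member (65, 122 and 139 against 33.4, 33.3 and 49.9, log2 1.44 ± 0.37). The lower members numbered 3 without lymph node replicate 3 and 4 without fat replicate 1.

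Of 27 cell division genes 6 were higher and 1 lower, against 11% and 12.3% over all genes, with a median of 0.61. Without quantile normalization 15 were higher and none lower, with a median of 1.03. With the filter on the 2 groups compared, 23 were tested, and 6 were higher and 1 lower, with a median of 0.70. Mki67, a marker of cycling cells, read 899.9, 601 and 977 in fat and 104, 417 and 208 in lymph node (log2 1.96 ± 0.41), with lymph node replicate 2 above the other lymph node arrays. Ccne2, a G1/S cyclin, read 345, 184 and 368 and 31, 31.2 and 28.8 (log2 3.24 ± 0.33), and the mitotic kinase gene Cdk1 199, 126 and 295 and 41.1, 92.7 and 58.9 (log2 1.68 ± 0.41). Kif11 and Birc5 were higher by 1.05 and 0.98. Dimmer probe sets of Ccne1 and Top2a, described next, gave -0.18 and 0.85. Top2a was higher by 1.37 and Ccne1 lower at -0.65, and both lost their calls in some fits (Top2a 1.30 without fat replicate 1, 1.04 without fat replicate 3 and 1.12 without lymph node replicate 1; Ccne1 -0.73 without fat replicate 1, -0.47 without fat replicate 2 and -0.38 without lymph node replicate 2). The number of higher members was 3 without fat replicate 1, fat replicate 3 or lymph node replicate 1, and 4 without lymph node replicate 3.

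Among glycolysis genes 4 of 12 were higher and none lower, with a median of 0.14 (0.09 without lymph node replicate 1). Without quantile normalization 7 were higher. The glucose transporter genes Slc2a1 and Slc2a3 read 713, 522 and 350.1 against 171, 196 and 172 (log2 1.50 ± 0.28) and 1531, 1602 and 1409 against 695, 717 and 649 (log2 1.14 ± 0.14). Dimmer probe sets of Slc2a1 gave 1.24 and 0.39. The kinase genes Hk2 and Pfkp were higher by 1.21 and 0.68, the latter lost without lymph node replicate 1 (0.55). Tpi1, Pfkl, Pgk1, Hk1, Pgam1, Aldoa, Ldha and Pkm did not pass, between -0.36 and 0.37.

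In the lipid list 9 of 26 were higher and 3 lower, with a median of 0.24 (0.13 without lymph node replicate 1). Without quantile normalization 14 were higher and 2 lower. Fabp4, a fatty acid carrier of adipocytes, macrophages and endothelium, read 2476, 1378 and 2097 in fat and 7.5, 8.42 and 7.75 in lymph node, where it was dim (log2 7.93 ± 0.20), with 1.53 and 5.67 in other probe sets. Lpl, which releases fatty acids from lipoproteins, read 1915, 342 and 1437 and 42.9, 47.7 and 44.3 (log2 4.45 ± 0.56), and the uptake receptor gene Cd36 244, 119 and 251 and 13.8, 13.2 and 11.9 (log2 3.90 ± 0.32). Fat replicate 2 was the lowest fat array for all 3, as it was for the adipocyte sum (2155, against 5575 and 3931 in replicates 1 and 3). Dgat1, the last enzyme of triglyceride synthesis, read 4594, 1408 and 3635 against 489, 565 and 509 (log2 2.46 ± 0.28). Pparg, the adipogenic nuclear receptor that also marks fat Treg, read 43.5, 74.4 and 107 against 24.9, 32.8 and 30.2 (log2 1.27 ± 0.25). Fabp5, Plin2, Cpt1a and Acadl were higher by 2.17, 1.85, 1.19 and 0.86. Scd2, a fatty acid desaturase, was lower at 401, 567 and 583 against 2136, 1629 and 1462 (log2 -1.75 ± 0.18), with -0.30 and 0.17 in dimmer probe sets, and the lysosomal lipase gene Lipa at 744, 1022 and 1571 against 3258, 2926 and 2474 (log2 -1.43 ± 0.35). Cpt2 was lower at log2 -0.53 and lost its call in 4 fits (-0.37 without fat replicate 1, -0.60 without fat replicate 3, -0.49 without lymph node replicate 1 and -0.47 without lymph node replicate 2).

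Survival and death genes had a median of 0.01, with 3 of 15 higher and 1 lower, against 11% and 12.3% over all genes. Without quantile normalization 5 were higher and none lower (median 0.37). Apart from Fasl, the higher ones were the proapoptotic Pmaip1 (621, 368 and 589 against 38.8, 63.7 and 55.7, log2 3.31 ± 0.21) and the protective Bcl2l1 (601, 401 and 467 against 224, 258 and 217, log2 1.06 ± 0.19). Bid was lower at log2 -0.70, a call lost in 3 fits (-0.44 without fat replicate 1, -0.64 without lymph node replicate 1 and -0.65 without lymph node replicate 2), and the lower members numbered 3 without fat replicate 2 and 2 without lymph node replicate 3. Bcl2 did not pass (-0.86, fat 1069, 3586 and 1972, lymph node 3640.4, 3432 and 3598).

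Beyond the lists, the largest higher differences among genes whose arrays did not overlap included Efemp1, a matrix protein, at 1603, 369 and 581 in fat and 7.24, 7.78 and 8.77 in lymph node (log2 6.47 ± 0.48), Gem, an inducible small GTPase, at 852, 352 and 556 and 14.3, 16.3 and 15.7 (log2 5.16 ± 0.23), and Myadm, a membrane protein, at 2978, 2218 and 2074 and 65.1, 55.4 and 56.1 (log2 5.35 ± 0.39). Fat replicate 1 was highest in all of them, as it was for Dcn. A dimmer probe set of Myadm gave 2.20. The largest lower differences of such genes were smaller in size. Abca1, the cholesterol exporter, read 242, 138 and 152 against 1339.8, 661 and 746 (log2 -2.34 ± 0.33), Ift80, a ciliary transport gene, 134, 249 and 163 against 825, 1172 and 1127 (log2 -2.55 ± 0.27), and Mtx3, a mitochondrial import gene, 128, 197 and 172 against 1094, 1041 and 825 (log2 -2.59 ± 0.23). Gm15708, Tmie, Snn, Dzip1, Afp, 2010315B03Rik, Vmn2r84 and A530021J07Rik made up the rest with Pou2af1, between -2.95 and -2.37. Bright second probe sets gave -0.33 for Ift80, -1.59 for Mtx3, -0.08 for Tmie, -0.12 for Snn, 0.11 and -0.90 for Dzip1 and -1.16 and -0.89 for Afp, so several of these lower values rest on a single probe set. Over all calls, 199 genes were at least 4-fold higher and 37 at least 4-fold lower.

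Treg of the same tissues show which of these differences went with fat in both cell types and which differed between them. Fat Treg against lymph node Treg gave 1969 higher genes (16.1%) and 2360 lower genes (19.3%). Of the genes higher in fat Tconv, 953 were also higher in fat Treg, which is 70.4% of the Tconv list and 48.4% of the Treg list. Of those lower in fat Tconv, 1135 were lower in fat Treg, 75.3% and 48.1% of the 2 lists. Another 40 genes were higher in fat Tconv and lower in fat Treg, and 14 the reverse. The 2 comparisons share no array, but Tconv and Treg arrays of the same tissue and replicate number deviated from their group means together (correlations of 0.36 to 0.66), so they may not be independent. The test of the difference between the tissue effects called 353 genes with a more positive effect in Tconv (2.88%) and 302 with a more negative one (2.46%), 655 in all. With Tconv and Treg paired by replicate number within each tissue, a replicate block chosen after the data were seen, 1447 genes were called.

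Of the 22 tested type 1 genes, 7 had a more positive effect in Tconv and 1, Csf2, a more negative one. Ifng read 989, 148 and 346 in fat Treg and 401, 429 and 311 in lymph node Treg, so that its tissue effect there was -0.03 against 5.32 in Tconv (difference 5.35, adjusted p = 6.75e-05). Tbx21 had -0.33 in Treg against 4.93 in Tconv (difference 5.26, adjusted p = 2.93e-07). Cxcr3 was lower in fat Treg (-1.61) and higher in fat Tconv (3.10), and Fasl likewise (-1.02 and 3.46). The killer granule gene Nkg7 had -0.15 and 3.97, Ccl5 1.12 and 4.41, and Eomes -0.49 and 1.76, each with a called difference.

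Of the 25 tested effector memory genes, 6 had a more positive effect in Tconv and 3 a more negative one, against 2.88% and 2.46% over all genes. Their median difference was -0.08, against -0.03 over all genes. Of the 25 tested residence genes, 6 had a more positive effect and 0 a more negative one, with a median difference of 0.32. In these 2 lists, Itgb1 was lower in fat Treg (-0.89) and higher in fat Tconv (2.45, difference 3.34), and P2rx7 and Ahr went the same way (-2.64 and -1.75 in Treg). Anxa1, S100a4, S100a6, Cd44, Cxcr6, Cd69 and Crem had effects of one direction in both, with differences from -0.59 to 0.35 that did not pass. Itgae was far lower in fat Treg (79.6, 90.7 and 116 against 2235, 1497 and 2224, log2 -4.37) than the -0.73 in Tconv (difference 3.64). In the naive list 3 of 18 members, Bach2, Nsg2 and S1pr1, had a called difference, with S1pr1 at -1.35 in Treg and -0.26 in Tconv (difference 1.09, adjusted p = 0.0167). Ccr7 and Lef1 had -2.65 and -1.22 in Treg, with differences that did not pass (1.01 and -0.07).

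The named genes with a more positive effect in Treg included several that were dim in Tconv. Cxcl3, a neutrophil attractant, read 8.26, 16.1 and 8.29 in fat Tconv and 1724, 1682 and 1441 in fat Treg (effects 0.64 and 7.41). AA467197 read 27.5, 50.3 and 44.5 and 1352, 2379 and 2547, and Hpgd, which inactivates prostaglandins, 139, 50.4 and 67.8 and 1452, 2411 and 1853. Il10 had 5.33 in Treg and 1.94 in Tconv (difference -3.39), Pparg 4.78 and 1.27 (difference -3.51), and Gata3 3.24 and 0.85 (difference -2.39). Among stress genes 3 of 34 had a more positive and 4 a more negative effect in Tconv, against 2.88% and 2.46% over all genes. Hspa1a was at 6.94 in Treg (difference 1.23, adjusted p = 0.0459) and Fosb at 6.65 (difference -1.55, adjusted p = 0.0176). The stromal gene Dcn was at 5.29 in Treg and 4.97 in Tconv and Fabp4 at 7.93 and 7.93, and none of the tested stromal, macrophage or adipocyte markers had a difference called by limma, nor one at an unadjusted p under 0.05.

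**Figure D4:**
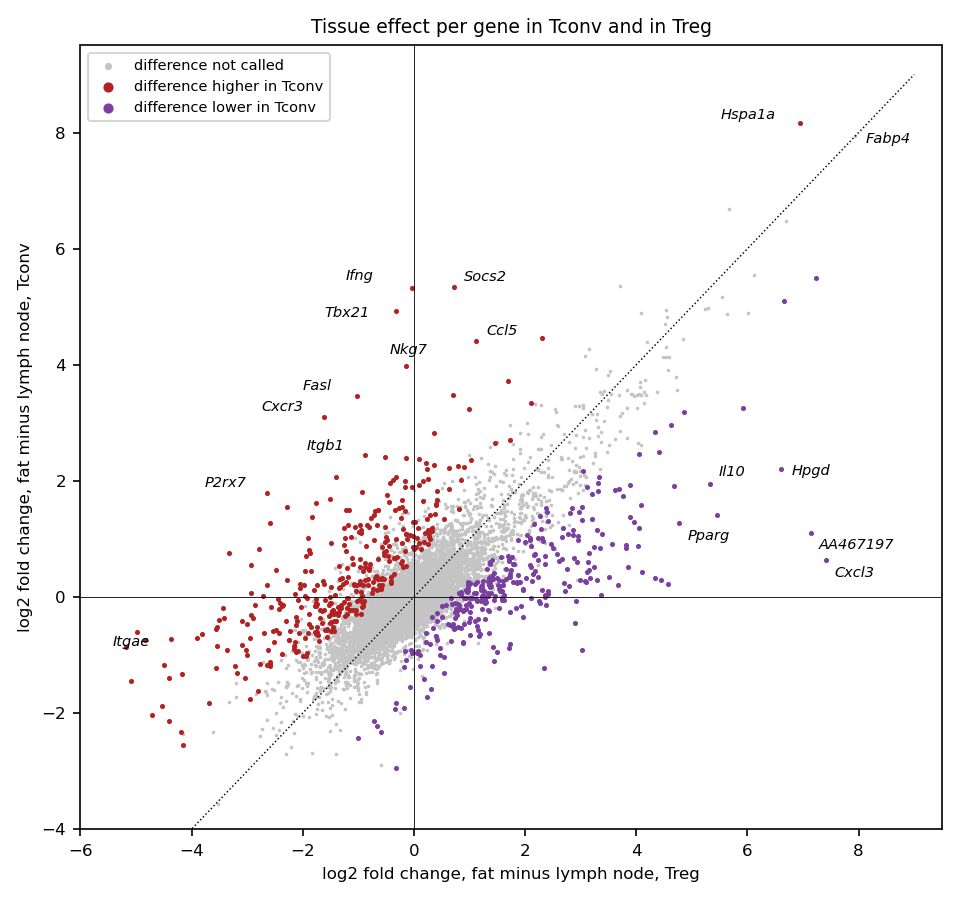
Tissue effect of each of the 12258 tested genes in Treg (horizontal) and in Tconv (vertical) as log2 fat minus lymph node, with red and purple for genes whose effects differ at an adjusted p under 0.05 and a dotted line of equal effects. Ifng, Tbx21 and Nkg7 lie near 0 in Treg and high in Tconv, Cxcl3, AA467197 and Hpgd lie far below the line, and Fabp4 lies on the line.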

How the data were processed

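The authors deposited linear microarray intensities, processed with RMA in GenePattern per the series' design text, of a version not given in the sources used here; which arrays were processed together is not stated. The values were taken as log2 and the 18 arrays were quantile-normalized. Of 45101 probe sets, 34945 had 1 gene symbol, 932 several and 9160 none, and the probe set with the highest mean stood for its gene. Genes whose mean stayed at or under the median of all values in each of the 6 groups were dropped as dim. All 6 groups were fitted together with limma 3.58.1 in R 4.3.3 (lmFit, eBayes), with Benjamini-Hochberg adjustment over 12258 genes, and the number of arrays, 3 a group, limits the precision. The fit was checked on simulated data with independent noise for each array and no shift of intensity between tissues. That check does not cover correlated arrays or such a shift. The thymus groups entered the fit only for its spread.

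The members and lists were chosen with earlier results of these data known. The 19 programme and 12 marker lists held 519 genes, of which 471 matched. Genes named by rule were the 12 largest differences in each direction among calls without overlap, the 4 largest called members of each programme list in each direction, a set of anchor genes, and the 8 largest differences between Tconv and Treg effects in each direction. Further list members are named to account for whole lists. Promoter windows and symbols came from RefSeq tables.

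Replicate numbers did not pair fat with lymph node Tconv: arrays of the same number had correlated deviations of -0.44, -0.04 and -0.32. Fat replicates 1, 2 and 3 shared scan ranges with lymph node replicates 3, 2 and 1. Those pairs had 0.39, -0.04 and 0.40, and the main fit had no block for the range. Tconv and Treg arrays of the same tissue and replicate number did correlate, at 0.51, 0.36 and 0.55 in fat and 0.66, 0.41 and 0.56 in lymph node. These arrays shared a scan range as well. Alternatives covered the scaling, offset, filter, probe set rule, blocks and leaving out each array. Some listed genes are not reported here.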

Additional observations from a re-analysis of the deposited data

Results flagged for a closer look

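The effect of the tissue differed between Tconv and Treg, by the test of the difference between the tissue effects at an adjusted p under 0.05 in limma, for 52 of the genes named. Each value in parentheses is the log2 difference between fat and lymph node in Tconv minus that in Treg. Among type 1 and cytotoxic genes, the effect was more positive in Tconv for Ifng (5.35), Tbx21 (5.26), Cxcr3 (4.72), Fasl (4.48), Nkg7 (4.12), Ccl5 (3.29), Eomes (2.25) and Gzmk (1.92). Among effector memory and residence genes, the effect was more positive in Tconv for P2rx7 (4.43), Itgae (3.64), Ahr (3.37), Itgb1 (3.34), Rgs1 (2.78), Il2rb (2.29), Bhlhe40 (2.15), Klrg1 (2.02) and Itga1 (1.32). Another 3 effector memory genes, outside these 52, had a more negative effect in Tconv. Among Treg-linked, costimulatory and receptor signalling genes, the effect was more positive in Tconv for Socs2 (4.62), Nrp1 (2.74), Btla (2.69), Cblb (2.21), Entpd1 (1.94), Izumo1r (1.47), Ptpn22 (1.12) and Nfatc2 (0.80). Among naive and node exit genes, the effect was more positive in Tconv for Nsg2 (1.87) and S1pr1 (1.09). Among cell division genes, the effect was more positive in Tconv for Mki67 (2.38), Ccne2 (2.24), Top2a (2.14) and Ccne1 (1.11). Among metabolic, stress and other genes, the effect was more positive in Tconv for Btbd11 (4.08), Hk2 (2.03), Egr2 (1.72), Ift80 (1.61), Hspa1a (1.23), Scd2 (1.19) and Slc2a3 (0.82). It was more negative in Tconv for Il10 (-3.39), Gata3 (-2.39), Pparg (-3.51), Cxcl2 (-1.73), Cxcl3 (-6.77), Fosb (-1.55) and Dgat1 (-1.58) among cytokine, chemokine, stress and lipid genes. Outside the lists it was more negative for Snn (-1.42), A530021J07Rik (-2.64), Bace2 (-3.34), Ramp1 (-3.56), Dmxl2 (-4.03), Hpgd (-4.40) and AA467197 (-6.03). Cxcl3, Dmxl2 and AA467197 were under the filter level in both Tconv groups and were tested only through another group. Hspa1a, Izumo1r, Mki67, Top2a, Ccne1, Ptpn22, Nfatc2 and Dgat1 lost this call in at least 1 of the fits with 1 array fewer. The direction of each was kept in those fits.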

How the results depend on the processing

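With the values as deposited, without quantile normalization, 4899 genes were higher and 526 lower. With only the 6 Tconv arrays of fat and lymph node normalized and fitted, 1150 genes were higher and 1207 lower. With the filter on the 2 groups compared, 1303 genes were higher, 1485 lower and 568 differed between Tconv and Treg effects. In that fit the type 2 list had 6 higher of 10 and the stromal list 9 higher of 11. The cytotoxic list had 8 higher and 2 lower of 16, and the costimulatory list 6 higher and 2 lower of 17. With the range of scan file numbers as a block 2261 genes were lower and 1094 differed between Tconv and Treg effects, against 1507 and 655. The differences numbered 1512 with a random block on tissue and replicate number, and 1447 with a replicate block within tissue, chosen after seeing the data. The cause was not tested. A replicate block between fat and lymph node, whose numbers do not pair the arrays, gave 1368 higher, 1556 lower and 692 differing genes. Leaving out 1 array at a time gave 1071 to 1334 higher genes, 1091 to 1521 lower genes and 514 to 749 differing genes. In the same fits 11 to 12 naive genes were lower, and 15 to 17 effector memory, 14 to 15 type 1 and 20 to 22 residence genes were higher. Of 127 named genes called between tissues, 99 kept their call in every alternative fit that tested them and their sign within each scan range. Of 52 named differences, 42 kept their call in every such fit, the unplanned replicate block within tissue included. A gene dropped by a filter was not tested in that fit and did not count as lost.

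Signs turned in 5 cases. Klf2 was -0.027 within scan range 5, Skil was 0.21 as a mean of probe sets and 0.0020 within scan range 5, Il21 was 0.45 within scan range 3, and the difference of Ccr2 was -1.01 as a mean of probe sets. Within a range there was 1 array against 1, so no call could be made there. Weak signal limits the dim genes, whose fold changes are least certain.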
